A study of Mus musculus with 38 samples.

Results

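The comparison described here sets dVenus- granule cells of the dentate gyrus from mice placed in an unfamiliar context without shock against dVenus- granule cells from mice that stayed in their home cage. Its members are 7 of the 38 libraries of the series. They were taken from the sample titles and comprise 4 Non Shock (NS) dVenus- libraries, from mice 18, 19, 20 and 21, and 3 HomeCage (HC) dVenus- libraries, from mice 15, 16 and 17. Each library holds the RNA of 10 cells of 1 mouse, pooled before cDNA synthesis by Smart-seq2, a full-length protocol for very small inputs, so a library is a mean over its cells and a mouse is the unit of replication. All mice were young adult male C57BL/6J animals carrying Arc::dVenus, a transgene in which the promoter of Arc drives a destabilized fluorescent protein. NS mice had been placed in the conditioning chamber without a foot shock on the day before the cells were collected, and HC mice had received no such exposure. Per the paper's methods, NS mice went through the conditioning protocol apart from the shocks, and that protocol includes tones. In both groups the cells were picked by aspirating the contents of fluorescent (dVenus+) cells and of their non-fluorescent (dVenus-) neighbours under the microscope. The dVenus- cells are therefore defined by a lack of fluorescence at collection, in slices, and nothing in the labels says what these cells did during the exposure. The libraries of both groups carry the same sequencing run prefix.

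Granule cells are the principal neurons of the dentate gyrus. They fire rarely, and in a new environment a sparse subset of them switches on immediate early genes such as Arc, Fos and Egr1, which encode synaptic regulators and transcription factors, while most neighbours stay silent. The comparison asks whether cells without reporter fluorescence differ between exposed and unexposed mice on the day after the exposure, measured apart from the fluorescent cells.

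The libraries held between 6856117 and 9096451 counts on genes and between 7037 and 10540 genes with at least 1 count. Their largest single entry was Rn45s, the 45S pre-ribosomal RNA, which took 6.82%, 53.5% and 8.61% of the counts in HC mice 15, 16 and 17 and 40.0%, 49.3%, 11.2% and 11.5% in NS mice 18 to 21. High and low shares thus occurred in both groups, and the difference of the means, 5.03 percentage points, was far inside the spread (exact permutation test over 35 arrangements, two-sided, p = 0.771, adjusted p = 0.771 over 6 library measures, smallest possible p 0.0286). The number of genes detected did not separate the groups either, with 8390 ± 1322 in HC (SD, n = 3) and 9081 ± 1335 in NS mice (SD, n = 4, exact permutation test, p = 0.543, adjusted p = 0.771). Values below are CPM, the counts of a gene relative to its library's total after scaling by TMM (normalized CPM), a level, and differences are log2 fold changes of NS over HC. The rank correlation between 2 libraries over genes had a median of 0.366 within HC, 0.418 within NS and 0.388 between the groups, so the group a library belonged to made little difference to its likeness with another.

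**Figure D1:**
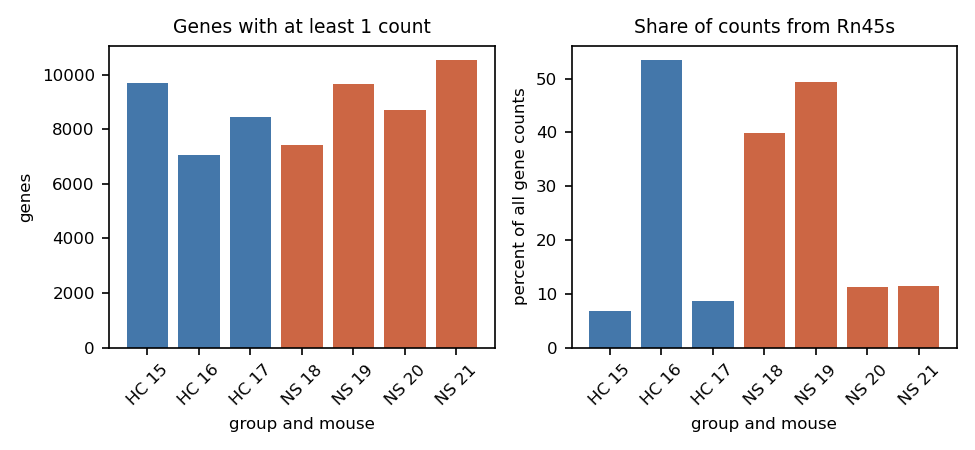
Bars give, for each dVenus- library (HC blue, NS orange, number of the mouse below), the genes with at least 1 count (left) and the percentage of gene counts from Rn45s (right). HC 16, NS 18 and NS 19 stand out with 53.5%, 40.0% and 49.3% Rn45s, and HC 16 has the fewest genes, 7037.

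Arc and the granule cell markers followed the labels. Arc, whose promoter drives the reporter, stood at 0, 0.207 and 5.32 normalized CPM in the HC and at 0, 4.64, 0.173 and 0 in the NS dVenus- libraries, against 90.7 to 564 in the 7 dVenus+ libraries of the same mice. The 2 kinds of library were scaled in separate runs of TMM, so these levels are not strictly on 1 scale. In raw counts Arc reached at most 51 in a dVenus- library (HC 17) and 502 (NS 19) to 6397 (NS 18) in the dVenus+ libraries. No dVenus- library came near that range. Prox1, the homeodomain factor that defines granule cells, was found in every library, at 124, 22.8 and 92.6 normalized CPM in HC and 204, 107, 210 and 101 in NS mice (log2 fold change 0.96, SE 1.08, edgeR adjusted p = 1.00). Among 14 granule cell markers 12 were tested and none was called, and their summed level lay between 1366 and 3077 normalized CPM in HC and between 1964 and 2231 in NS mice. Per kilobase of exon the highest of them in HC were C1ql2, a secreted C1q-like protein of mossy fibres, at 279 CPM per kb, and Stxbp6, at 77.5. Calb1, the calcium buffer calbindin of mature granule cells, reached 67.7 CPM per kb in HC and 97.2 in NS mice. The immature markers Dcx and Eomes averaged under 3 normalized CPM in either group. Others of the 10 immature markers were higher, with Neurod1 at 121 in HC and 145 in NS mice, Sox11 at 109 and 61.9, and Bhlhe22 at 162 and 84.4. Their summed level lay between 206 and 827 in HC and between 179 and 464 in NS mice.

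No gene was called between NS and HC dVenus- cells. Of 23420 genes, 8547 reached 10 counts in 3 or more of the 7 libraries and were tested with edgeR's quasi-likelihood test, and at an adjusted p under 0.05 with an absolute log2 fold change over 1 the background called was 0% in either direction, with the smallest adjusted p at 1.00. At an unadjusted p under 0.05, 226 genes were higher in NS (2.64% of those tested) and 54 were lower (0.632%), 3.28% together. limma-trend also called 0 genes (390 at an unadjusted p under 0.05), whereas DESeq2's Wald test on the same genes called 142, of which 127 were higher and 15 lower in NS. Only 4 of these 142 had 10 counts in every library, and 61 had no count in any library of one group. Unless DESeq2 is named, a gene said below to be called or not called is so by edgeR. DESeq2's calls included genes named below, among them Zfp869, Serpine2, Dusp28, Sema4f, Mast2, Itsn1, Ier5, Gabra5, Grin3a, Cacna2d3, Vamp3 and Cry1.

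The filter on low counts does not treat the groups alike. A gene present in NS alone passes it with 3 of 4 libraries, but one present in HC alone needs 3 of 3. All 127 tested genes without a count in HC mice had an unadjusted p under 0.05, as had both tested genes without a count in NS mice. Among the 2375 genes with 10 counts in all 7 libraries, 27.8% of those tested, 14 were higher and 17 lower at an unadjusted p under 0.05. Their median log2 fold change was 0.04, against 0.14 over all genes tested. In these better measured genes the groups did not overlap in 108, or 4.55%, with NS higher in 67 and lower in 41. Over all tested genes the groups did not overlap with NS higher in 2.83% and with NS lower in 1.53%.

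The spread between mice set what could be seen. The common biological coefficient of variation was 1.72, and the 95% interval of a gene counted in every library extended a median of 2.60 log2 units to either side. It stayed within a 4-fold difference either way in 289 of the 2375 genes. For the most precisely measured gene, Actb, the cytoskeletal beta-actin, the libraries read 3552, 4890 and 3897 normalized CPM in HC and 3345, 3887, 6908 and 3614 in NS mice, a log2 fold change of 0.11 with an interval from -0.61 to 0.83. Snap25, the SNARE protein of the presynaptic membrane, read 2461, 2953 and 3851 in HC and 3260, 2637, 2026 and 1742 in NS mice, a log2 fold change of -0.35 with an interval from -1.12 to 0.42. For such abundant transcripts the intervals were narrow beside the median, yet that of Snap25 still reached -1.12 log2 units. For most genes even large differences were not detectable with this number of mice.

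**Figure D2:**
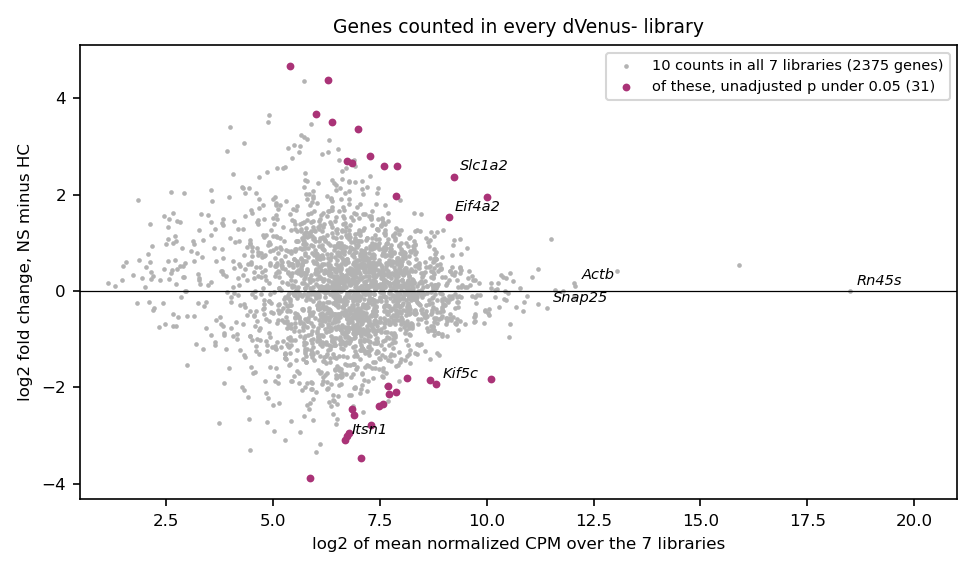
Each point is 1 of the 2375 genes with at least 10 counts in all 7 dVenus- libraries, by the log2 of its mean normalized CPM (horizontal) and its log2 fold change, NS minus HC (vertical). The 31 genes with an unadjusted p under 0.05, 14 above and 17 below 0, are purple, and none was called by edgeR after adjustment.

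Of the 10 genes of smallest p lower in NS, 9 are given here. They were transcripts that stood at 15.3 normalized CPM or less in every NS library, and none of them was called by edgeR. Dusp28, a small dual-specificity phosphatase (chr1:92906989-92908620), read 37.5, 217 and 74.5 normalized CPM in HC and 0, 0, 0.0867 and 0 in NS mice, where 1 count in all was found. The pooled ratio was 2929-fold, with a counting interval from 525 to 115752. Sema4f, a membrane semaphorin of neurons, read 45.7, 470 and 101 in HC and 1.28, 6.76, 5.72 and 0.0846 in NS mice (log2 fold change -5.89, SE 1.71, unadjusted p = 0.00362). The groups were well apart in both genes.

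Eif2ak1, the haem-regulated kinase of the translation factor eIF2alpha, read 21.1, 524 and 198 in HC and 0, 7.15, 15.3 and 8.63 in NS mice (log2 fold change -4.99, SE 1.65). Trmt2a, a tRNA methyltransferase, read 51.1, 344 and 126 against 0, 0.387, 8.76 and 4.48 (log2 fold change -5.66, SE 1.92). In neither did the groups overlap. Mast2, a microtubule-associated kinase, had 7.49, 20.7 and 75.1 normalized CPM in HC and no count in NS mice, at least 399-fold lower where a group without counts is set to a floor of 3 counts over the group, and Fbn1, the extracellular fibrillin-1, had 5.00, 2.90 and 63.1 against no count, at least 298-fold lower. These 2 were the only genes with 10 counts in all HC and none in any NS library.

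Zfp942, Palmd and Phf8 completed the 9, with overlapping groups. Each was high in HC 15 and HC 16 and at 0.313 (Zfp942) or 0 normalized CPM (Palmd, Phf8) in HC 17, and none exceeded 2 in an NS library. HC 16 held the highest level in 7 of the 9 genes, and it is the HC library with 53.5% Rn45s and the fewest genes. The part of that library in these differences is given by leaving it out: the log2 fold change of Sema4f was then -4.40, that of Eif2ak1 -3.81 and that of Trmt2a -4.69.

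Among the 10 genes of smallest p higher in NS, 9 had no count in any HC library. Zfp869, a zinc finger gene (chr8:69705137-69717068), led the list with 426, 22.8, 84.4 and 16.5 normalized CPM in NS mice and was at least 1095-fold higher there. Serpine2, the secreted protease inhibitor nexin-1 (chr1:79794317-79858665), read 17.3, 36.0, 141 and 70.0 in NS mice, at least 704-fold higher. 1810009A15Rik, an uncharacterized gene, read 13.9, 66.7, 39.2 and 113, at least 568-fold higher. In these 3 genes every NS library was above every HC library. In dVenus- cells of fear-conditioned mice, which had also been in the chamber, 10 counts were reached in 9 (Zfp869), 8 (Serpine2) and 10 (1810009A15Rik) of 12 libraries. Genes lower in NS reached 10 counts there too, Dusp28 in 9, Sema4f in 11, Mast2 in 11 and Fbn1 in 5 of 12. Those libraries held 7434 to 11492 genes with 10 counts, against 5029 to 8368 in the HC dVenus- libraries.

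Psmf1, an inhibitor of the proteasome, read 405, 0, 56.6 and 11.3 in NS mice, and Cttnbp2nl, a cortactin-binding protein homologue, 341, 0, 28.4 and 13.4. Both were high in NS 18 and absent from NS 19. Snx4, a sorting nexin of endosomes, read 0.0781, 0.207 and 0 in HC and 341, 2.90, 60.2 and 2.54 in NS mice, a pooled ratio of 1204 with a counting interval from 333 to 9944. The remaining 4 were low. E130308A19Rik, the small Maf factor Mafg, the CREB-like Crebl2 and the Src-family kinase Yes1 had no count in HC and at most 6.85 normalized CPM in an NS library, with bounds between 17.3-fold and 32.1-fold. NS 18 held the highest level in 5 of the 10 genes.

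**Figure D3:**
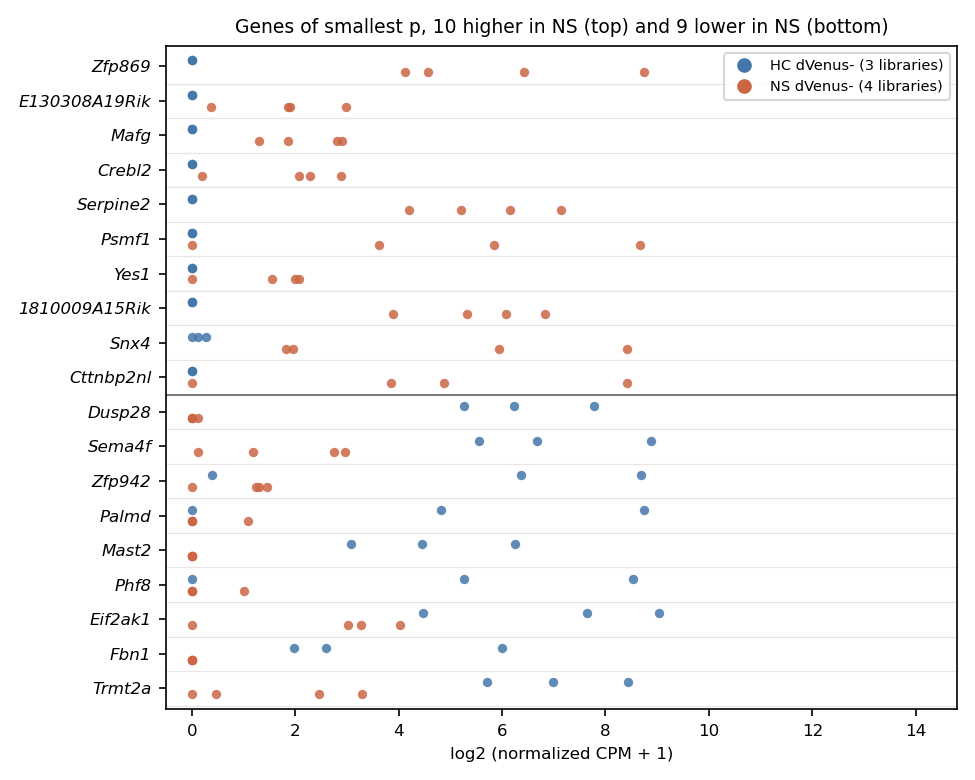
Points give the log2 of normalized CPM + 1 in each dVenus- library (HC blue, NS orange) for genes of smallest unadjusted p, 10 higher and 9 lower in NS, none of them called by edgeR. Nearly all lie at or near 0 in one group.

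Altogether 18 genes had at least 10 counts in all 4 NS libraries and none in HC. The 5 of highest mean level were Zfp869, Serpine2, 1810009A15Rik, 9430016H08Rik and Rwdd2a. 9430016H08Rik read 163, 6.19, 12.6 and 21.5 normalized CPM, at least 403-fold higher in NS, and Rwdd2a 104, 3.48, 53.9 and 20.1, at least 410-fold higher. The 18 also included a calcium channel and a glutamate receptor subunit that are described below.

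Of the genes counted in every library the clearest differences, chosen after their values were seen, lay among genes of glutamate uptake, endocytosis and axonal transport. Slc1a2, the astrocytic glutamate transporter GLT-1 (chr2:102658239-102790784), read 276, 167 and 92.9 normalized CPM in HC and 246, 1386, 1807 and 256 in NS mice (log2 fold change 2.37, SE 0.81, unadjusted p = 0.0101). It was high in NS 19 and NS 20 only, and the groups overlapped. Itsn1, an endocytic scaffold, read 159, 238 and 228 against 23.2, 25.9, 9.71 and 38.5 (log2 fold change -3.10, SE 1.17, unadjusted p = 0.0181), with no overlap. Kif5c, a kinesin heavy chain of neuronal axonal transport, read 337, 1499 and 515 against 67.5, 258, 112 and 386 (log2 fold change -1.93, SE 0.75).

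No gene that neuronal activity induces was called between the groups by edgeR, while DESeq2's Wald test called Ier5. All 59 genes of this list were in the files, 10 of them had no count in any of the 7 libraries, and 31 were tested. At an unadjusted p under 0.05, 1 was higher and 1 lower, against 2.64% and 0.632% of all genes tested. The median log2 fold change was -0.56, with 11 positive and 20 negative values, against 0.14 over all genes. The immediate early transcription factors Npas4, Egr2 and Egr4 had no count, and Nr4a1, Nr4a3 and Atf3 averaged under 0.1 normalized CPM in either group. Egr1 read 0, 1.66 and 93.6 in HC and 6.52, 20.5, 23.1 and 7.61 in NS mice.

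Btg2, an antiproliferative immediate early gene, was the member of smallest p in the downward direction, at 52.7, 520 and 155 normalized CPM in HC and 31.3, 0.193, 0.0867 and 8.71 in NS mice (log2 fold change -4.59, SE 1.73, unadjusted p = 0.0180). Junb, a subunit of the AP-1 factor, read 36.3, 69.1 and 98.3 against 3.40, 0.580, 1.13 and 26.7 (log2 fold change -3.09, SE 2.13). In both genes all NS libraries lay below all HC libraries, which makes 2 of the 31 tested, against 1.53% of all genes tested. In 0 tested members did all NS libraries lie above all HC libraries, against 2.83%. Ier5 was the opposite case, with no count in HC and 0, 112, 51.6 and 28.3 in NS mice, at least 384-fold higher. Bdnf, the neurotrophin, was highest in HC 17, at 338, and lay at 2.13 to 95.5 in NS mice. Penk, the enkephalin precursor, read 49.0, 0 and 434 in HC and 0.142, 24.7, 20.4 and 32.7 in NS mice. Its groups overlapped, and its high HC mean came from HC 17.

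The summed level of the 59 genes was 2366, 2337 and 4033 normalized CPM in HC and 2250, 1887, 1801 and 1921 in NS mice, so that NS lay below HC throughout. Of the 30 lists it was the only one whose sums did not overlap under TMM, and its own sums overlapped under each of the other scalings. With DESeq2's size factors the ranges were 2311 to 4177 in HC and 1629 to 2402 in NS mice, with library totals 1239 to 5640 and 1141 to 2697, and with library totals without Rn45s, a scaling chosen after seeing the data, 2663 to 6172 and 2251 to 3047. Jun, the most abundant member, read 346, 730 and 302 in HC and 525, 107, 304 and 334 in NS mice.

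**Figure D4:**
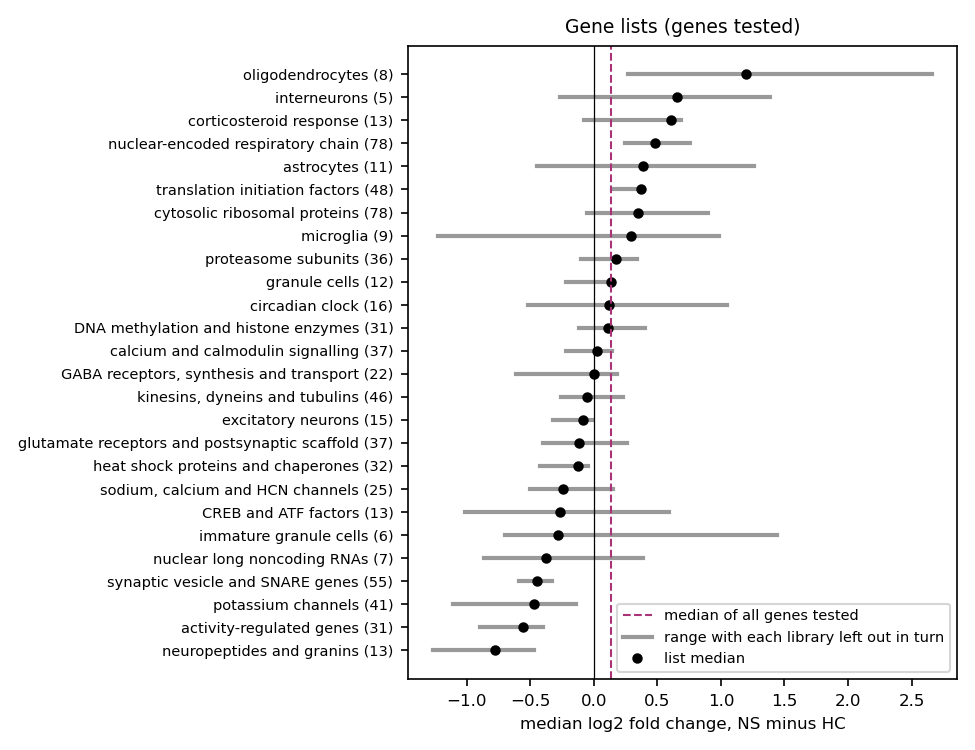
For the 26 gene lists with at least 5 genes tested, the point is the median log2 fold change, NS minus HC, the grey bar its range when each of the 7 libraries is left out in turn, and the dashed line the median of all genes tested, 0.14. Neuropeptides and activity-regulated genes lie lowest, oligodendrocyte markers highest with the widest bar.

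Energy and translation genes lay on the other side. Of 78 tested nuclear-encoded subunits of the respiratory chain 57 had a positive and 21 a negative log2 fold change, with a median of 0.48 and none called, while 53.7% of all genes tested had a positive value. Atp5c1, the gamma subunit of the ATP synthase, read 255, 43.8 and 193 normalized CPM in HC and 619, 423, 637 and 292 in NS mice (log2 fold change 1.59, SE 0.76). Ndufa7, a subunit of complex I, read 74.4, 7.47 and 2.29 against 183, 147, 312 and 87.5 (log2 fold change 2.70, SE 1.38). In both the groups did not overlap, as in Cox8a and Ndufc2, which makes 4 of 78 with NS higher against 2.83% of all genes tested. The catalytic Atp5b went the other way, at 1086, 1313 and 1437 against 896, 652, 820 and 1272. Over the whole list the sums overlapped, at 13229 to 24120 in HC and 16868 to 30862 in NS mice.

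Cytosolic ribosomal proteins had 53 positive and 25 negative values among 78 tested and a median of 0.34. Rps28 read 34.1, 17.2 and 30.9 in HC and 185, 104, 178 and 50.8 in NS mice (log2 fold change 2.24, SE 1.36), without overlap. The list's sum was 8594, 25496 and 10734 in HC and 24049, 16273, 18498 and 11245 in NS mice. HC 16, NS 18 and NS 19, with the largest Rn45s shares, held 3 of the 4 highest sums, and the part of Rn45s in this was not tested. Without HC 15 the median was -0.05.

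The list taken by the symbol prefix Eif had 48 genes tested, 30 positive and 18 negative values and a median of 0.37. At an unadjusted p under 0.05, 4 were higher and 1 lower in NS, against 2.64% and 0.632% of all genes tested, and several of them are not initiation factors. Eif2ak4, the amino acid sensing kinase GCN2, had no count in HC and 3.97, 5.80, 19.9 and 12.4 normalized CPM in NS mice, at least 111-fold higher. Eif2ak1, lower in NS as given above, phosphorylates the same eIF2alpha. Eif2c2, an older symbol of the small RNA effector Argonaute-2, read 2.03, 1.04 and 0 in HC and 125, 222, 0 and 21.1 in NS mice (log2 fold change 6.47, SE 2.85). Eif4a2, an RNA helicase of the cap-binding complex, was the abundant one, at 360, 75.5 and 359 in HC and 962, 714, 975 and 420 in NS mice, without overlap (log2 fold change 1.53, SE 0.67, unadjusted p = 0.0369). Atf4, the transcription factor translated when eIF2alpha is phosphorylated, read 46.9, 5.19 and 5.21 in HC and 298, 154, 101 and 36.1 in NS mice (log2 fold change 2.95, SE 1.50).

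Synaptic vesicle and SNARE genes had 18 positive and 37 negative values among 55 tested, a median of -0.44 and sums of 13775 to 16533 normalized CPM in HC and 10496 to 14021 in NS mice. These sums overlapped under TMM, DESeq2's size factors and library totals, but not with library totals without Rn45s, at 18835 to 24934 in HC and 15613 to 18789 in NS mice. Vamp3, a widely expressed vesicle SNARE, was the one member with an unadjusted p under 0.05 and lay in the opposite direction, at 0.546, 0.207 and 1.46 in HC and 60.2, 20.3, 123 and 1.69 in NS mice (log2 fold change 6.08, SE 2.78). Neuropeptides and granins had 2 positive and 11 negative values and a median of -0.78. Scg2, secretogranin II, read 431, 7.68 and 882 in HC and 226, 162, 1.91 and 320 in NS mice (log2 fold change -1.31, SE 1.25), a spread within each group that exceeds the difference. For both lists the median stayed negative without any one library and under each scaling, between -0.67 and -0.33 for the vesicle genes and between -1.27 and -0.47 for the peptides.

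Receptors for the main transmitters had medians of -0.12 (glutamate, 37 tested) and 0.00 (GABA, 22 tested). Gabra5, the GABA-A receptor subunit of extrasynaptic sites in the hippocampus, read 0.156, 0 and 0.104 normalized CPM in HC and 0.567, 33.8, 148 and 108 in NS mice, a pooled ratio of 806 with a counting interval from 276 to 3911. Grin3a, an NMDA receptor subunit, had no count in HC and 1.42, 75.0, 45.4 and 2.45 in NS mice, at least 243-fold higher. The AMPA receptor subunits Gria1 and Gria2 lay between 452 and 859 in HC and between 242 and 1067 in NS mice.

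Of the channel genes Cacna2d3, an auxiliary subunit of voltage-gated calcium channels, had no count in HC and 43.8, 3.29, 63.5 and 31.2 normalized CPM in NS mice, at least 364-fold higher. Potassium channels had 41 genes tested, no p under 0.05, 18 positive and 23 negative values and a median of -0.47. Kcnk1, a leak channel of the tandem pore family, was their member of smallest p, at 22.9, 446 and 234 in HC and 9.78, 28.6, 87.9 and 89.1 in NS mice (log2 fold change -2.12, SE 1.19).

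Transcripts of other cell types reached these pools in amounts that differed from mouse to mouse. Astrocyte markers summed to 691, 1173 and 1076 normalized CPM in HC and to 546, 1910, 4833 and 1271 in NS mice, and Slc1a2 is one of these markers. Without it the sums were 415, 1006 and 983 in HC and 300.5, 525, 3026 and 1015 in NS mice, so NS 20 stayed highest while NS 19 lay below HC 16, HC 17 and NS 21. Slc1a3, the glial transporter GLAST, read 1109 in NS 20 against at most 182 in any other library. Of the 12 markers 11 were tested, and their median log2 fold change of 0.39 became -0.45 without NS 20. Aldh1l1 averaged 0 in HC and 0.233 in NS mice. The part of astrocytic RNA in the difference of Slc1a2 was not tested.

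Oligodendrocyte markers had a median of 1.20 among 8 tested, which was 0.27 without NS 21 and 2.66 without HC 16, with sums of 236, 2881 and 2152 in HC and 2670, 1287, 139 and 4203 in NS mice. Mal, a myelin proteolipid, was the one without overlap, at 3.51, 1.66 and 2.50 in HC and 55.3, 92.6, 4.60 and 30.1 in NS mice (log2 fold change 4.15, SE 2.47). Microglial markers summed to 61.7, 729 and 523 in HC and to 16.9, 104, 8.58 and 802 in NS mice. Interneuron markers summed to 154 to 400 in HC and 106 to 1183 in NS mice, with 3 positive and 2 negative values among 5 tested. Vip and Reln had no count, but other members were present. Gad2 read 14.3, 67.4 and 80.8 in HC and 129, 206, 0.0867 and 4.91 in NS mice. Pvalb read 0, 22.0 and 1.25 against 51.0, 87.4, 0 and 0. Gad1, the GABA-synthesizing enzyme that granule cells also express, read 235, 57.7 and 2.40 in HC and 939, 225, 199 and 90.8 in NS mice (log2 fold change 1.88, SE 1.19). Markers of oligodendrocyte precursors and of vessel cells summed to at most 22.6 and 124, and the haemoglobin and other blood markers found in the files had no count. In a pool of this kind fewer cells of a type and less RNA per cell cannot be told apart.

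**Figure D5:**
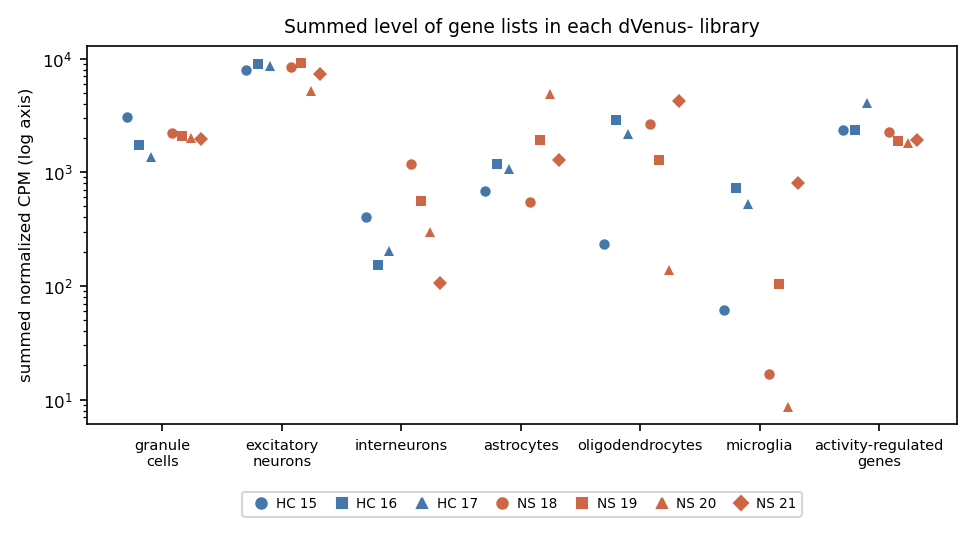
Points give the summed normalized CPM (log axis) of 6 cell type marker lists and of the activity-regulated genes in each dVenus- library, HC blue and NS orange, 1 symbol per mouse. Granule cell sums lie between 1366 and 3077, microglial sums range from 8.58 to 802 within NS, and astrocyte markers are highest in NS 20, at 4833.

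Genes of the corticosteroid response, which handling and novelty can engage, had 13 members tested and none with a p under 0.05, with a median of 0.60 that was -0.01 with library totals as the scaling and -0.08 without NS 20. Fkbp5, the chaperone induced by glucocorticoid receptors, read 0, 12.7 and 0 normalized CPM in HC and 276, 24.5, 33.3 and 48.6 in NS mice, without overlap (log2 fold change 4.51, SE 2.53, unadjusted p = 0.0945). Other targets did not share this arrangement. Tsc22d3 read 65.0, 11.6 and 186 in HC and 15.5, 14.1, 74.6 and 93.2 in NS mice. Among circadian genes Cry1, a repressor of the clock, had no count in HC and 0, 98.4, 11.2 and 9.05 in NS mice, at least 190-fold higher, with a list median of 0.12 over 16 genes. CREB and ATF factors (median -0.26, 13 tested), enzymes of DNA methylation and histone modification (0.11, 31 tested), heat shock proteins (-0.13, 32 tested), proteasome subunits (0.18, 36 tested) and calcium and calmodulin genes (0.03, 37 tested) had medians between -0.26 and 0.18. The other lists, of excitatory neurons (-0.09, 15 tested), CA fields and mossy cells (-0.66, 4 tested), immature granule cells (-0.28, 6 tested), nuclear long noncoding RNAs (-0.37, 7 tested), sodium, calcium and HCN channels (-0.24, 25 tested) and kinesins, dyneins and tubulins (-0.06, 46 tested), held no called gene. Psmd3, a regulatory subunit of the proteasome, was at 0.702, 8.50 and 0 in HC and 63.4, 89.1, 57.5 and 87.6 in NS mice (log2 fold change 4.60, SE 2.39).

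Whether the dVenus- cells differed from their dVenus+ neighbours in this comparison was tested with the cell type by group term in the 14 libraries of both kinds. Of 10927 genes 0 (0%) had an adjusted p under 0.05 in edgeR, and 224 (2.05%) had an unadjusted p under 0.05. DESeq2's Wald test gave 485 at an adjusted p under 0.05. In dVenus+ cells alone, 8706 genes were tested and 0 (0%) called, with 300 (3.45%) at an unadjusted p under 0.05. Gcn1l1, Psmf1, Sae1 and Nfx1 were among the 5 genes of smallest p for the difference.

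Nfx1, a transcriptional repressor, read 112, 114 and 177 normalized CPM in HC and 0.142, 0, 0 and 6.51 in NS dVenus- cells, and 46.0, 24.8 and 0.0902 in HC and 43.6, 123, 99.4 and 39.0 in NS dVenus+ cells. Gcn1l1, an older symbol of the activator of the kinase GCN2, read 0, 1.66 and 0 in HC and 5.95, 77.9, 22.8 and 85.5 in NS dVenus- cells, and 6.15, 257 and 40.1 against 0.440, 31.6, 1.32 and 35.1 in dVenus+ cells. Sae1, of the SUMO-activating enzyme, read 217, 0 and 0 in HC and 280, 173, 30.3 and 107 in NS dVenus- cells, and 20.3, 34.6 and 18.3 in HC and at most 0.397 in NS dVenus+ cells. The log2 fold changes of these genes and of Psmf1 had opposite signs in the cell types, while no gene passed the adjusted threshold in edgeR. The genes were picked for a small p of that very difference, so the choice itself favours opposite signs. The levels printed for dVenus- and dVenus+ cells were scaled in separate runs of TMM.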

How the data were processed

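RNA of 10 pooled dVenus- cells per mouse was compared between 4 NS and 3 HC mice. The authors deposited raw counts, 1 file per library with 23420 genes and 5 entries that name no gene. Per the labels and the study's methods, single reads were aligned to mm10 with TopHat2 2.0.13 and counted on NCBI transcripts with HTSeq 0.6.0, without use of molecular identifiers. Reads shared by overlapping genes or near-identical copies cannot be told apart in these counts. The entries without a gene name were left out of library totals and tests, and reads outside genes came to 16.4% to 34.9% of the assigned and unassigned unique reads.

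Groups came from titles, source names and cell type labels. In several of these libraries the description label names another library, and it was not used. Genes that reached 10 counts in 3 or more libraries were tested with edgeR 4.0.16 (TMM, glmQLFit, glmQLFTest, two-sided, R 4.3.3), and called at a Benjamini-Hochberg adjusted p under 0.05 and an absolute log2 fold change over 1. The cell type by group term was fitted over 14 libraries with the mouse as block, since both libraries of a mouse come from 1 animal. As a check, the deviations of the libraries of a mouse from their group means had a median correlation of 0.007 over 7 mice (0 of 7 over 0.1). Library measures were compared by an exact permutation test. Intervals of pooled ratios are exact binomial ones at 95% and cover counting error only. A group without counts was set to a floor of 3 counts for bounds. These bounds also leave out the spread between mice. Levels per length use GENCODE M21 exon unions, and positions are RefSeq's on GRCm38, the build of mm10. DESeq2 1.42.0 and limma 3.58.1 served as alternatives, and the fits were tested on simulated data.

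The genes named are the 10 of smallest p in each direction where fewer were called, members of smallest p or highest level in each of 30 lists, genes counted in all libraries of only 1 group, Arc, Prox1, the most abundant genes, and the 5 of smallest p for the cell type difference. Others are said to be chosen after their values were seen. The members and the lists were chosen with earlier results of these data known. Some genes that the rule names are not reported here. A pool of cells from 1 mouse is 1 replicate.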

Additional observations from a re-analysis of the deposited data

Results flagged for a closer look

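Of 56 sets of 4 NS values examined, on the log2 scale for genes, 6 held a library far from the other 3. Chance alone marks about 1 in 20 such sets where values are normally distributed. That rate does not apply to Dusp28, Palmd and Phf8, where the other NS libraries had no count and any count is marked. These genes were also named for their low NS levels. Scg2 stood at 1.91 normalized CPM in NS 20, against 162 to 320 in the other NS mice. The remaining 5 concern low levels, with Dusp28 at 0.0867 and Palmd at 1.13 normalized CPM in NS 20, Phf8 at 1.02 and Nfx1 at 6.51 in NS 21, each against values at or near 0, and Zfp942 at 0 in NS 18, against 1.35 to 1.74. No gene differed between the cell types at an adjusted p under 0.05 in edgeR.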

How the results depend on the processing

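Under 2 other scalings, 2 other count filters, limma-trend, 1 fit of 14 libraries and with each library left out, edgeR and limma called 0 genes. DESeq2's Wald test called 127 higher and 15 lower (edgeR 0 and 0), 485 for the cell type difference (edgeR 0) and 110 in dVenus+ cells (edgeR 0), and the cause was not tested. At an unadjusted p under 0.05 the 226 higher genes became 434 without the count filter, 32 with 10 counts in 6 of 7 libraries and 425 with DESeq2, and ranged from 80 (without NS 21) to 515 (without HC 15), with 93 without NS 19 and 84 without NS 20. The 54 lower genes became 34 with library totals, 638 without the filter, 163 with DESeq2, 107 with limma-trend and 87 in the fit of 14 libraries, and ranged from 27 (without HC 16) to 101 (without NS 21). Alternatives chosen after seeing the data left out Rn45s, with 225 and 52 genes, or the 3 libraries with over 25% Rn45s, with 36 and 35.

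No paired analysis was possible because NS and HC mice are different animals with no shared number. For the cell type difference the fit with no replicate block gave 885 genes at an unadjusted p under 0.05 instead of 224, DESeq2 1655, and leaving out a mouse 187 to 304. In dVenus+ cells the 300 genes became 713 with DESeq2 and ranged from 190 (without NS 18) to 531 (without HC 15), with 455 without HC 17.

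The median log2 fold change of all genes, 0.14, was -0.01 with DESeq2's size factors and -0.05 with library totals, so list medians are best read against it. In 17 of 26 lists the median changed sign with 1 of the 7 libraries left out. That of nuclear long noncoding RNAs ranged from -0.87 (without NS 19) to 0.39 (without HC 17), with 0.07 without HC 16, and was -0.97 without the Rn45s-rich libraries, where immature granule cell markers had 1.54. The difference in total counts ranged from -208226 (without HC 17) to 911941 and that in the Rn45s share from -3.04 (without HC 15) to 20.3 percentage points, with -2.15 without HC 17 and -2.08 without NS 19. Of 731 alternative values of the 52 genes named with a difference, 700 kept their direction and stayed uncalled, 25 were called by DESeq2, and 6 changed sign. These were Actb (0.11), at -0.067 with DESeq2's size factors and with its test and from -0.34 (without NS 20) to 0.25 (without HC 16), with -0.09 without HC 15 and -0.02 without HC 17, and Sae1, at -0.69 without the Rn45s-rich libraries. The libraries held 6856117 to 9096451 counts, each from 10 cells of 1 mouse, and counting intervals leave out the spread between such pools.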

Other observations

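Long noncoding RNAs and the remaining abundant transcripts add a picture of what these pools contained. Malat1, a nuclear RNA, read 4369, 4401 and 12721 normalized CPM in HC and 6218, 12495, 11746 and 7433 in NS mice. Calm2, which encodes calmodulin, lay between 2760 and 6517 in all 7 libraries, with overlapping groups. Gas5, a growth arrest transcript that hosts small nucleolar RNAs, read 83.6, 213 and 30.8 in HC and 251, 226, 193 and 182 in NS mice, and Meg3, an imprinted RNA of neurons, 499, 278 and 1622 in HC and 734, 680, 173 and 403 in NS mice.

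Across the 7 libraries 9690 of the 23420 genes had no count at all, and 2375 had 10 counts in every library, while 2254 reached 10 counts in a single library.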
